A study of Beta vulgaris with 12 samples.

Results

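Roots of salt-treated sugar beet seedlings were compared with control roots on day 7 of the experiment, over every gene that the deposited table annotates with a description and that had a mean FPKM of at least 1 in the salt or the control group. FPKM is the number of sequenced fragments of a gene, divided by the length of its transcript and by the mapped fragments of the library. The rule gave 14982 of the 28320 genes of the table, of which 11070 carried a description other than hypothetical or uncharacterized. No fold change or test entered the rule. A further 3259 genes reached the same FPKM without a description and were tested but not described.

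The seedlings were of the sugar beet line KWS0143, 4 weeks old, and stood in aerated nutrient solution in containers. The control group CK_7 received Hoagland solution only. The salt group S_7 received NaCl and Na2SO4 in the same solution, raised by steps to 300 mM Na+, and roots were taken after 7 days of that treatment. Each group had 3 biological replicates, so that 6 of the 12 libraries of the series were used, and the 6 libraries of day 1 (CK_1 and S_1) entered only a test of whether an effect differed between the days and an alternative fit. Whole roots were sampled, so a lower FPKM may reflect fewer cells of a type or less RNA per cell, and these cannot be told apart.

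FPKM values do not hold read numbers. Relative depth was estimated from the most frequent ratio of values under 0.15 FPKM between a library and CK_7 replicate 1, which was set to 1.00. It was 0.885 to 1.00 in CK_7 and 0.804 to 1.09 in S_7. Each estimate rested on only 45 to 56 genes at the peak, of 880 to 1012 compared. Between 23688 and 24234 genes per library were above 0. Across the annotated genes, which are not independent replicates, log2(FPKM + 1) correlated at 0.832 to 0.850 between libraries of 1 group and at 0.774 to 0.817 between the groups. Of the 4757 annotated genes that reached 20 FPKM in a library, 344 were listed at 0 in another of the 6. Such zeros may be failed estimates, and those genes are given by library where they appear. Markers were read as a check of the labelled tissue. The 3 Casparian strip membrane proteins, which build the barrier of the root endodermis, summed to 14.9 to 44.4 FPKM in CK_7 and 72.7 to 104 in S_7, without overlap, and their part in the results was not tested. The 12 chlorophyll a-b binding proteins, which mark leaf tissue, summed to 7.73 to 19.0 FPKM in CK_7 and 6.73 to 14.3 in S_7, and the 5 Rubisco small chains to 1.89 to 4.45 and 1.71 to 1.88.

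A root in saline solution meets a shortage of free water and an excess of Na+ and Cl-. Plants are known to respond by keeping Na+ out of the shoot or storing it in vacuoles, by making osmolytes and protective proteins, and by changing their hormones, walls and nutrient uptake. Sugar beet descends from a coastal plant and stores both sucrose and Na+ in its tissues.

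Expression changed in both directions. Without any threshold, 8317 of the annotated genes were higher in S_7 and 6665 lower, and in 33.2% of them the groups did not overlap. Among the 14982 genes, 570 were upregulated and 487 downregulated by the criteria of the study for a differentially expressed gene (DEG), namely a raw P under 0.05 with a change of more than 1 on the log2 scale in either direction. These were 7.06% of the annotated genes, beside 5.08% of all 27411 genes tested, of which 2.7% were upregulated and 2.38% downregulated. The test was limma on log2(FPKM + 1), and fold changes are on that scale, which shrinks the change of genes with low values. The stricter test, a Benjamini-Hochberg adjusted p under 0.05 over all genes tested, called 212 of the annotated genes higher and 143 lower, together 2.37%. Of all genes 1.69% were called, 0.952% higher and 0.733% lower. In what follows a gene rose or fell only where it passed the adjusted test, errors of fold changes are standard errors, and members of a list that met only the DEG criteria are given by their values. Counts of DEGs in a list are to be read beside the shares over all annotated genes, 3.80% upregulated and 3.25% downregulated.

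**Figure D1:**
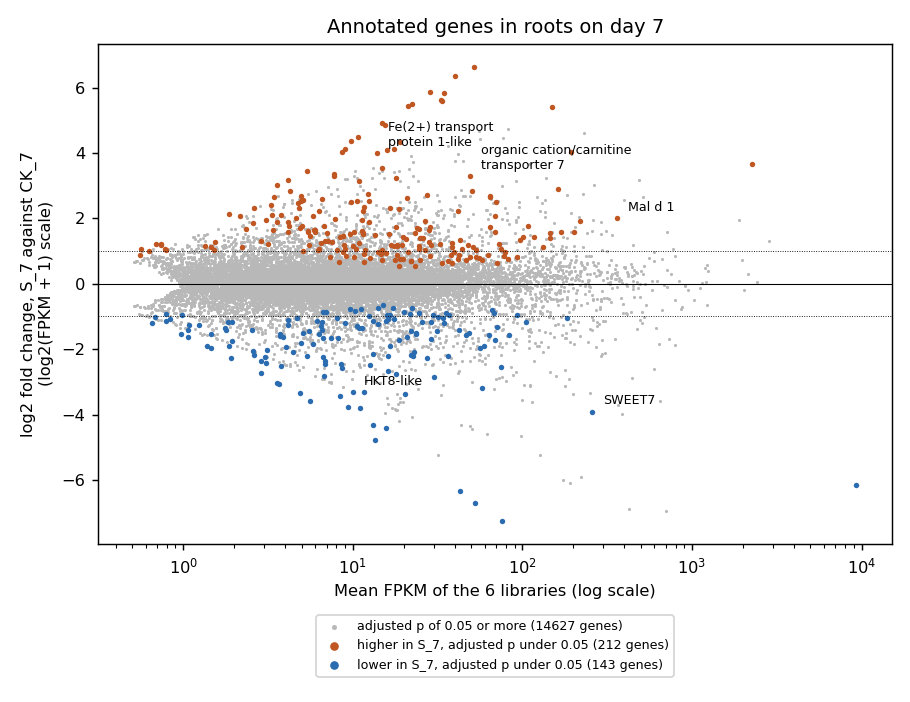
Each point is 1 of the 14982 annotated genes, with its mean FPKM over the 6 libraries on the x axis (log scale) and its log2 fold change, S_7 against CK_7, on the y axis. Orange points (212 genes) rose and blue points (143 genes) fell at an adjusted p under 0.05, and dotted lines mark log2 fold changes of 1 and -1.

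Scaling the libraries by the median of their ratios moved the median log2 fold change of the annotated genes from 0.059 to -0.0014. It turned the balance of DEGs among them to 508 upregulated and 545 downregulated, from 53.9% to 48.2% upregulated, and raised the lower calls at adjusted p from 143 to 192, beside 213 higher. It also turned the sign of 9 of 60 list medians, all of them within 0.064 of 0 under both scalings, namely auxin, ethylene, ERF, NAC and bHLH factors, pectin and starch enzymes, leucine-rich repeat kinases and clock genes. The adjusted calls rest on all 3 replicates. Their total of 355 was 119, 108 and 99 without CK_7 replicate 1, 2 and 3, and 172, 179 and 115 without S_7 replicate 1, 2 and 3. All 355 genes kept their direction in these 6 fits and 48 kept an adjusted p under 0.05 in each of them. The number of the 6 fits in which a named gene kept its call is therefore given with each group of genes. Of the annotated genes, 288 had both an adjusted p under 0.05 and a log2 fold change beyond 1, and in all 288 the S_7 and CK_7 libraries did not overlap, as was so for 26.4% of all genes tested. The selection used these same libraries and favours such a gap, so nothing is read from it. Of these 288, 208 are not named in the study's text or tables, and most genes described below come from them by the rule given with the processing. Among the 288, 16 were listed at 0 in a library and at 20 FPKM or more in another, and the rule leaves such genes out. A further 46 genes were chosen after their values were seen. Among them are 14 that passed the adjusted test, TIFY 6B-like, zinc transporter 1-like, lysine histidine transporter-like 7, BAG regulator 1-like, BTC1, delta-1-pyrroline-5-carboxylate synthase, a 17.6 kDa heat shock protein, 3 fructan 6-exohydrolases and 4 genes of abscisic acid. The other 32 are given below with a larger adjusted p, as are genes that the rule takes as the highest of their list, which are named as such.

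Some genes of Na+, K+ and Cl- transport changed by large amounts, in both directions. Of 59 members, 5 met the DEG criteria upregulated and 3 downregulated, and the median log2 fold change of the list was -0.0030. These DEGs were 13.6% of the list, beside 7.06% of the annotated genes and 5.08% of all genes tested. The 2 HKT transporters above 1 FPKM both fell. In rice and Arabidopsis, transporters of this family withdraw Na+ from the xylem sap. The HKT8-like gene LOC104903830 stood at 23.7, 14.3 and 18.9 FPKM in CK_7 and 0.272, 1.45 and 1.5 in S_7, so that its mean was 17.7-fold lower (log2 fold change -3.31 ± 0.34, adjusted p = 0.0221). HKT6 (LOC104902377) stood at 6.26, 8.81 and 6.28 FPKM in CK_7 and 0.826, 0.221 and 0.238 in S_7 (log2 fold change -2.52 ± 0.26, adjusted p = 0.0215). In both genes every salt library lay below every control library by more than the spread within the groups. The chloride channel CLC-b (LOC104887561), a vacuolar anion transporter in Arabidopsis, rose from 10.2 ± 0.455 to 29.5 ± 1.86 FPKM (SD, n = 3; log2 fold change 1.44 ± 0.089, adjusted p = 0.00695). Its libraries stood at 10.7, 10.2 and 9.81 FPKM in CK_7 and 29.4, 31.4 and 27.7 in S_7, the tightest groups among the genes of this list named here. The cation/H+ antiporters split, with 5.39, 3.41 and 5.99 FPKM in CK_7 and 1.23, 0.220 and 0.537 in S_7 for antiporter 14-like (LOC104894068) and 1.16, 1.90 and 3.17 FPKM in CK_7 and 6.98, 8.89 and 6.32 in S_7 for antiporter 18 (LOC104892215). Both met the DEG criteria, in opposite directions, but not the adjusted test (adjusted p = 0.0627 and 0.0792, limma). The cyclic nucleotide-gated channel 17 gene (LOC104906014) stood at 3.28, 2.95 and 3.04 FPKM in CK_7 and 8.88, 8.05 and 5.91 in S_7 (adjusted p = 0.0619). Without 1 library in turn, the call held in 6 of 6 fits for CLC-b and in 1 for each HKT gene.

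Of the 24 proton pumps, which energize such transport, 19 were higher in S_7 and 5 lower, with a median log2 fold change of 0.22 (0.15 after scaling) and only 1 DEG. That gene was the V-type ATPase subunit c''2 (LOC104887714), part of the membrane ring of the vacuolar pump, at 9.45, 11.0 and 10.9 FPKM in CK_7 and 34.9, 57.4 and 36.9 in S_7 (log2 fold change 1.91 ± 0.21, adjusted p = 0.0247, kept in 2 of 6 fits). The 18 V-type ATPase subunits together summed to 779 to 956 FPKM in CK_7 and 1110.5 to 1282 in S_7, which do not overlap.

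**Figure D2:**
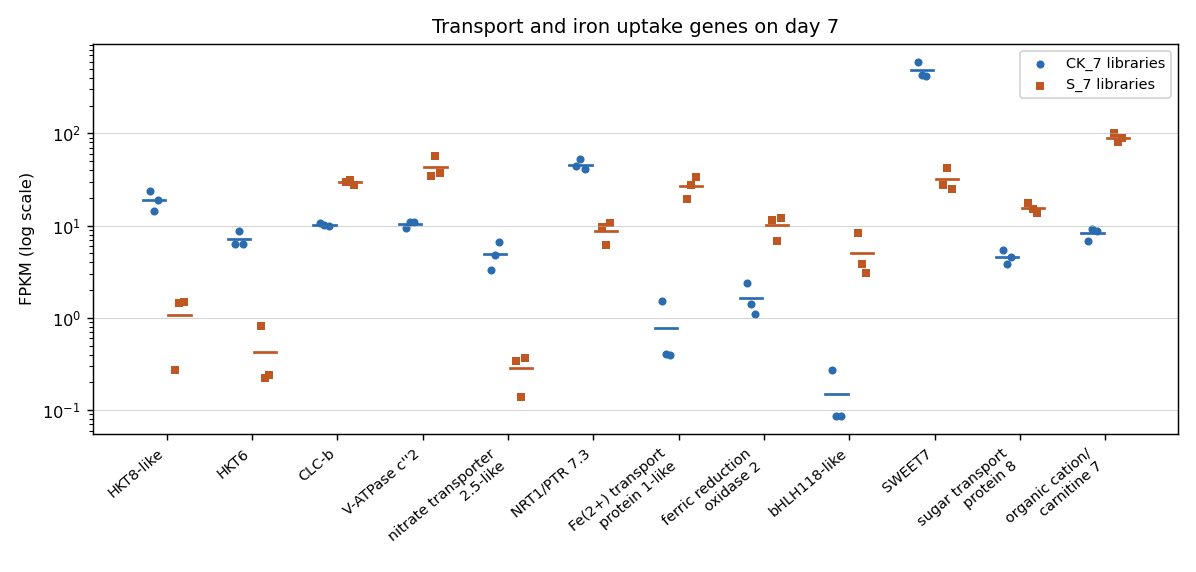
FPKM (log scale) of 12 genes of ion, nitrate, iron and sugar transport in each of the 3 CK_7 libraries (blue circles) and the 3 S_7 libraries (orange squares), with horizontal bars at the group means. In each gene the groups do not overlap, and the HKT, nitrate transporter 2.5-like and SWEET7 genes were lower in S_7 while CLC-b and the iron uptake genes were higher.

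Genes of iron uptake were higher in S_7 than in CK_7, the ferrous iron transporter by the most, and the means of day 1 are given below. Dicot roots reduce ferric iron at the surface and take up ferrous iron through a transporter of the epidermis. The Fe(2+) transport protein 1-like gene (LOC104900709), whose Arabidopsis counterpart is that transporter, rose from 1.51, 0.404 and 0.401 FPKM in CK_7 to 19.7, 27.4 and 33.7 in S_7, a 34.8-fold higher mean (log2 fold change 4.0 ± 0.32, adjusted p = 0.0124). Ferric reduction oxidase 2 (LOC104887088), the surface reductase, stood at 2.40, 1.40 and 1.10 FPKM in CK_7 and 11.5, 6.84 and 12 in S_7 (log2 fold change 2.07 ± 0.29, adjusted p = 0.0442). The bHLH118-like factor (LOC104892691) was near 0 in the controls, at 0.273, 0.0864 and 0.0868 FPKM, and stood at 8.26, 3.83 and 3.05 in S_7 (log2 fold change 2.30 ± 0.35, adjusted p = 0.0492). The regulator FER-LIKE IRON DEFICIENCY-INDUCED (LOC104902918), which drives iron uptake genes in Arabidopsis, met the DEG criteria only, at 1.97, 2.92 and 2.01 FPKM in CK_7 and 8.72, 4.25 and 5.86 in S_7 (adjusted p = 0.125). Of 8 genes that the descriptions place in this group, a choice made after their values were seen, 8 were higher in S_7 and 3 passed the adjusted test. The call held in 6 of 6 fits with 1 library left out for the Fe(2+) transport gene, in 0 for the oxidase and in 1 for bHLH118-like.

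Other metal genes moved both ways. The list of iron, zinc and copper homeostasis had 67 members, with 7 DEGs up and 5 down and a median of -0.015. Nramp3 (LOC104894900), which releases iron from vacuoles in Arabidopsis, stood at 2.93, 6.0 and 2.98 FPKM in CK_7 and 15.8, 12.9 and 14.3 in S_7 (adjusted p = 0.0510). The zinc transporter 1-like gene (LOC104906281) fell from 9.97, 9.63 and 9.2 FPKM to 2.52, 2.37 and 1.13 (log2 fold change -1.85 ± 0.23, adjusted p = 0.0348). The heavy metal-associated protein 45 (LOC104900482) stood at 8.33, 14 and 14.6 FPKM in CK_7 and 0.970, 1.81 and 1.36 in S_7 (log2 fold change -2.46 ± 0.27, adjusted p = 0.0247), and the vacuolar iron transporter homolog 2 (LOC104903914) at 4.86, 4.51 and 8.26 FPKM in CK_7 and 0, 0 and 0.910 in S_7 (log2 fold change -2.43 ± 0.37, adjusted p = 0.0486). Its 2 zeros in S_7 stand beside control values under 10 FPKM. These 3 decreases held in 1, 1 and 0 of the 6 fits.

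Nitrate transporters that work at low supply were lower in salt. The list of nitrate, ammonium and nitrogen assimilation held 58 members, 4 DEGs up and 6 down, median 0.12. The high-affinity nitrate transporter 2.5-like gene LOC104908398, which in Arabidopsis serves nitrate-starved roots, stood at 3.31, 4.79 and 6.69 FPKM in CK_7 and 0.344, 0.138 and 0.371 in S_7 (log2 fold change -2.17 ± 0.27, adjusted p = 0.0327). A second copy, LOC104908396, stood at 2.82, 10.0 and 4.16 FPKM in CK_7 and 0.321, 0.956 and 0.313 in S_7 (adjusted p = 0.102). Nitrate transporter 2.1 (LOC104899765), the main high-affinity carrier of Arabidopsis roots, was uneven among the controls, at 1.68, 41.8 and 48.8 FPKM, and near 0 in S_7, at 0.0654, 0.0355 and 0.410 (adjusted p = 0.168). All 4 members of the transporter 2 family were lower in S_7, of which 3 met the DEG criteria.

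Of the NRT1/PTR family, which carries nitrate and peptides among other substrates, family 7.3 (LOC104892943) fell by 2.27 on the log2 scale. Its libraries stood at 43.8, 52.4 and 41.2 FPKM in CK_7 and 9.59, 6.24 and 10.6 in S_7 (adjusted p = 0.0184), and its Arabidopsis counterpart loads nitrate into the xylem. The dual-affinity carrier and nitrate sensor family 6.3 (LOC104892040) stood at 246, 174 and 165 FPKM in CK_7 and 74.5, 27.2 and 62.7 in S_7, with groups that do not overlap but an adjusted p of 0.0955. Family 5.4 (LOC104887528) rose, from 1.17, 1.47 and 2.01 FPKM to 5.02, 8.42 and 6.68 (log2 fold change 1.58 ± 0.24, adjusted p = 0.0499). The 39 members of this family split almost evenly, with 22 higher and 17 lower. Leaving out 1 library kept the call in 1 of 6 fits for transporter 2.5-like, 3 for family 7.3 and 0 for family 5.4.

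Amino acid transporters had 4 DEGs up and 5 down among 50 members (median 0.14). The WAT1-related protein At2g37460 (LOC104898776), of a family that holds amino acid exporters, fell from 17.4, 16.6 and 14.5 FPKM to 0.820, 0.533 and 0.428, a 27.2-fold lower mean (log2 fold change -3.43 ± 0.17, adjusted p = 0.00265). A second WAT1-related entry, At2g39510-like, which joins the loci LOC104886991 and LOC109134480 and may mix their reads, stood at 6.62, 6.51 and 3.46 FPKM in CK_7 and 0.361, 0.0918 and 0.288 in S_7 (log2 fold change -2.35 ± 0.28, adjusted p = 0.0292). The lysine histidine transporter-like 7 gene (LOC104903855) also fell, from 9.85, 9.08 and 9.21 FPKM to 0.898, 2.10 and 0.900 (adjusted p = 0.0254). The related transporter-like 8 gene (LOC104903853) was far more abundant, with groups that did not overlap, at 468, 273 and 303 FPKM in CK_7 and 179, 185 and 143 in S_7, but did not pass limma's adjusted test (adjusted p = 0.135). Amino acid permease 6 (LOC104884498) rose, at 12.2, 9.71 and 11.0 FPKM in CK_7 and 29.9, 24.8 and 22.2 in S_7 (log2 fold change 1.15 ± 0.15, adjusted p = 0.0348). The call held in 6 of 6 fits for At2g37460, 1 for At2g39510-like, 1 for transporter-like 7 and 0 for permease 6.

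The sugar facilitator SWEET7 (LOC104908211) showed the largest fall among abundant transporters named here. SWEET proteins let sugars pass a membrane down their gradient. The gene stood at 598, 429.7 and 422 FPKM in CK_7 and 27.7, 42.5 and 25 in S_7, a 15.2-fold lower mean (log2 fold change -3.91 ± 0.26, adjusted p = 0.00793), and the call held in 6 of 6 fits. It made up most of the control level of the 8 SWEET genes, which summed to 490.0 to 681 FPKM in CK_7 and 92.4 to 123 in S_7, and none of the other 7 met the DEG criteria. Hexose carriers moved in both directions. Sugar transport protein 8 (LOC104883884) rose from 5.39, 3.80 and 4.60 FPKM to 17.7, 15.3 and 13.9 (log2 fold change 1.58 ± 0.16, adjusted p = 0.0214, 1 of 6 fits), and sugar carrier protein C (LOC104907567) fell from 1.45, 1.84 and 1.21 to 0.324, 0.0706 and 0.142 (log2 fold change -1.08 ± 0.15, adjusted p = 0.0415, 0 of 6 fits). In all, 5 of 40 sugar and polyol transporters met the DEG criteria upregulated and 3 downregulated.

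Among the enzymes of central carbon metabolism, those named for fructan breakdown rose. The list of invertases, sucrose and fructan enzymes had 21 members, 1 up and 0 down (3 and 0 at adjusted p), median 0.14, where the counts before the parentheses follow the DEG criteria. Its 3 rises were fructan 6-exohydrolases. LOC104899809 rose from 55.2, 54.8 and 55.1 FPKM to 85.0, 87.6 and 85.4 (log2 fold change 0.63 ± 0.080, adjusted p = 0.0348), with no overlap and little spread within the groups. LOC104899807 rose from 8.53, 8.98 and 9.41 to 17.1, 17.0 and 14.7 (log2 fold change 0.79 ± 0.10, adjusted p = 0.0362) and the 6-exohydrolase-like gene LOC104901010 from 4.82, 8.10 and 7.04 to 16.7, 23.1 and 21.6 (log2 fold change 1.5 ± 0.21, adjusted p = 0.0443), and each of the 3 calls held in 0 of 6 fits. Glycolysis and fermentation had 65 members, 4 up and 2 down (2 and 1 at adjusted p), median 0.17. Alpha-amylase 3 of the plastid (LOC104897971), which degrades starch, fell from 6.17, 6.53 and 7.27 FPKM to 2.55, 2.90 and 2.70 (log2 fold change -1.04 ± 0.14, adjusted p = 0.0394, 0 of 6 fits), among 29 members of the starch list with 1 DEG up and 2 down. Matching by words also put the abundant alpha-amylase/trypsin inhibitor entry in this list, which is named as an inhibitor and met no DEG criteria. Mitochondrial respiration had 55 members, 0 up and 0 down (1 and 0 at adjusted p), and its highest gene, the ATP synthase subunit beta (LOC104896631), stood at 119.7, 134 and 248 FPKM in CK_7 and 209, 164 and 334 in S_7 (adjusted p = 0.563).

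Among genes outside every list, the organic cation/carnitine transporter 7 gene (LOC104891334) rose 10.9-fold, from 6.75, 9.27 and 8.81 FPKM in CK_7 to 101, 80.3 and 89.5 in S_7 (log2 fold change 3.30 ± 0.15, adjusted p = 0.00241). The type I inositol polyphosphate 5-phosphatase 2 gene (LOC104892967), which removes phosphate from a lipid or soluble inositol signal, fell from 130.1, 129 and 125 FPKM to 28.9, 17.8 and 17.7 (log2 fold change -2.56 ± 0.21, adjusted p = 0.0124). Protein phosphatase 2C 72 (LOC104886457) stood at 16, 14 and 16.5 FPKM in CK_7 and 2.40, 1.47 and 1.47 in S_7 (log2 fold change -2.58 ± 0.18, adjusted p = 0.00946). A myb-like protein X (LOC104895935) fell from 20.4, 21.6 and 22.2 FPKM to 1.30, 0.180 and 0.509 (log2 fold change -3.81 ± 0.27, adjusted p = 0.00966). The controls of these 3 downregulated genes lay close together and far above all salt libraries.

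Several of the largest changes outside the lists rested on values at or near 0. Polyamine oxidase 5 (LOC104884237), which breaks down polyamines, was listed at 0 in all 3 CK_7 libraries and at 10.8, 6.86 and 7.17 FPKM in S_7 (adjusted p = 0.00946). The basic leucine zipper 43-like factor (LOC104896274) was likewise at 0 in CK_7 and at 17.4, 8.97 and 5.95 FPKM in S_7 (adjusted p = 0.0257). LIGHT-DEPENDENT SHORT HYPOCOTYLS 4-like (LOC104894728) stood at 4.91, 7.74 and 4.69 FPKM in CK_7 and was listed at 0 in S_7 (adjusted p = 0.0140), and a pentatricopeptide repeat protein, At4g38150 (LOC104904103), stood at 7.40, 6.72 and 7.3 FPKM in CK_7 and 0.00834, 0 and 0 in S_7 (adjusted p = 0.00340). The immediate early response 3-interacting protein 1 entry of locus LOC104892317 stood at 0.115, 0.0771 and 0.105 FPKM in CK_7 and 16.7, 16.7 and 17.9 in S_7 (log2 fold change 4.04 ± 0.14, adjusted p = 0.000970), but the locus has another entry in the table, so reads may have been divided between them. Over this and the preceding paragraph, the call held in all 6 fits for LOC104891334, LOC104884237, LOC104895935, LOC104886457, LOC104892317 and LOC104904103, in 5 for LOC104894728, in 4 for LOC104892967 and in 2 for LOC104896274.

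Genes of jasmonate, a hormone of wounding and stress, met the DEG criteria 8 times up and 2 times down among 39 members (median 0.24). These were 20.5% and 5.13% of the list, beside 2.7% and 2.38% of all genes tested. Allene oxide cyclase (LOC104905703), which closes the ring of the jasmonate precursor, rose 7.05-fold, at 18.4, 14.9 and 14.7 FPKM in CK_7 and 75.4, 107 and 156 in S_7 (log2 fold change 2.69 ± 0.28, adjusted p = 0.0223). Of the 7 TIFY proteins, a family that holds the jasmonate repressors, 4 met the DEG criteria upregulated. TIFY 10b (LOC104901654) stood at 59.5, 79.8 and 82.7 FPKM in CK_7 and 259.8, 193 and 201 in S_7 (log2 fold change 1.55 ± 0.20, adjusted p = 0.0348) and TIFY 6B-like (LOC104905099) at 22, 21.5 and 23.1 FPKM in CK_7 and 59.4, 42.3 and 63.3 in S_7 (log2 fold change 1.25 ± 0.17, adjusted p = 0.0393). Against this direction, 12-oxophytodienoate reductase 2 (LOC104897982) fell from 39.1, 36.3 and 45.1 FPKM to 20.9, 13.8 and 18 (log2 fold change -1.16 ± 0.17, adjusted p = 0.0486), and the lipoxygenase 3-1 gene (LOC104899745), whose product starts jasmonate synthesis, stood at 258, 119.7 and 169.8 FPKM in CK_7 and 44.3, 97.7 and 64.0 in S_7 (adjusted p = 0.155). The calls held in 2 of 6 fits for the cyclase and in 0, 1 and 0 for TIFY 10b, TIFY 6B-like and the reductase.

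Of 34 genes of abscisic acid, the hormone of water shortage, 5 rose and none fell at adjusted p, and 5 met the DEG criteria up and 1 down (median 0.10). In synthesis, zeaxanthin epoxidase (LOC104883753) rose from 5.21, 4.61 and 3.48 FPKM to 16.1, 16.3 and 11.7 (log2 fold change 1.53 ± 0.19, adjusted p = 0.0348, 0 of 6 fits) and the cleaving dioxygenase NCED5 (LOC104883854) from 0.426, 0.592 and 0.543 to 5.71, 2.82 and 5.30 (log2 fold change 1.84 ± 0.27, adjusted p = 0.0466, 1 of 6 fits). In signalling, protein phosphatase 2C 56 (LOC104902294) rose from 6.01, 5.02 and 4.09 FPKM to 10.9, 14.6 and 12.9 (log2 fold change 1.20 ± 0.17, adjusted p = 0.0459, 0 of 6 fits) and 2C 24 (LOC104900051) from 0.637, 0.410 and 0.639 to 5.76, 3.72 and 2.92 (log2 fold change 1.68 ± 0.26, adjusted p = 0.0499, 0 of 6 fits), of a family that holds back the response in Arabidopsis. These 4 genes are named in the study. The enzymes that inactivate the hormone differed in direction. Abscisic acid 8'-hydroxylase 2 (LOC104900082) rose from 4.15, 3.47 and 2.93 FPKM to 10.8, 9.02 and 10.6 (log2 fold change 1.31 ± 0.16, adjusted p = 0.0300, 0 of 6 fits). The more abundant 8'-hydroxylase 1-like gene (LOC104892458) stood at 392, 206 and 304 FPKM in CK_7 and 20.1, 81.9 and 58.4 in S_7, lower in every salt library, with an adjusted p of 0.0927.

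The list of cytokinin, a hormone of cell division, and of two-component signalling was mostly lower, 27 members against 15, and 26 against 15 without the clock gene BTC1. Of 42 members, 1 met the DEG criteria upregulated and 5 downregulated, and 2 fell at adjusted p, with a median of -0.13 (-0.19 after scaling). The DEGs were 2.38% and 11.9% of the list, beside 2.7% and 2.38% of all genes tested. The activating enzyme LOG4 (LOC104898665) fell from 2.90, 2.86 and 3.06 FPKM to 0.767, 0.660 and 0.830 (log2 fold change -1.17 ± 0.16, adjusted p = 0.0390). Cytokinin hydroxylase (LOC104888632), which makes zeatin-type cytokinins, stood at 23.4, 11.8 and 24.5 FPKM in CK_7 and 1.52, 5.63 and 2.74 in S_7 (adjusted p = 0.0780). Of the degrading enzymes, cytokinin dehydrogenase 6 (LOC104887446) stood at 172, 87.8 and 105 FPKM in CK_7 and 15.8, 63.0 and 34.3 in S_7 and dehydrogenase 5 (LOC104889207) at 26.1, 9.89 and 16.3 FPKM in CK_7 and 6.69, 4.53 and 5.12 in S_7, and the response regulator ARR5 (LOC104898023), a primary response gene in Arabidopsis, at 55.4, 52.1 and 104 FPKM in CK_7 and 11.2, 24.2 and 25.1 in S_7. None of these 3 passed the adjusted test (adjusted p = 0.167, 0.121 and 0.109, limma), although no library of the groups overlapped. BTC1, a pseudo-response regulator that controls bolting in beet and is no cytokinin gene, fell from 28.1, 27.8 and 22.7 FPKM to 13.9, 14.8 and 13.2 (log2 fold change -0.86 ± 0.12, adjusted p = 0.0394). The calls of LOG4 and BTC1 held in 0 and 0 of 6 fits.

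For the other hormones, auxin transport and response had 57 members, 5 up and 4 down (0 and 1 at adjusted p), median 0.051. PIN-LIKES 1-like (LOC104895625), an auxin carrier of the endoplasmic reticulum, fell from 11.7, 13.2 and 20.7 FPKM to 2.41, 1.28 and 2.11 (log2 fold change -2.45 ± 0.27, adjusted p = 0.0257, 0 of 6 fits). Ethylene synthesis and perception had 17 members and no DEG, and its highest gene, an aminocyclopropane-carboxylate synthase (LOC104892244), varied widely within both groups, at 563, 405 and 145 FPKM in CK_7 and 143, 353 and 273 in S_7. Gibberellin and brassinosteroid genes had 25 members, 0 up and 3 down (0 and 0 at adjusted p), median -0.084, and the highest, the receptor-associated kinase BAK1 (LOC104889659), stood at 148, 122 and 128 FPKM in CK_7 and 131, 136 and 302 in S_7 (adjusted p = 0.596).

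Transcription factor families split in both directions. WRKY factors, common regulators of stress and defence, had 42 members, 5 up and 7 down (2 and 0 at adjusted p), median -0.35. Their DEGs were 11.9% and 16.7% of the list, beside 2.7% and 2.38% of all genes tested. WRKY 61 (LOC104894101) rose from 2.01, 2.69 and 2.80 FPKM to 10.7, 7.48 and 8.06 (log2 fold change 1.47 ± 0.19, adjusted p = 0.0370), and WRKY 71 (LOC104883655) from 4.24, 4.49 and 3.76 to 16.3, 9.84 and 13.8 (log2 fold change 1.45 ± 0.20, adjusted p = 0.0415). MYB factors had 39 members, 5 up and 3 down (2 and 0 at adjusted p), median 0.067. MYB1R1 (LOC104894172), the more abundant, rose from 85.7, 78.9 and 81.3 FPKM to 219, 165 and 162 (log2 fold change 1.13 ± 0.16, adjusted p = 0.0415), and the Myb4-like gene (LOC104891116) from 0.289, 0.447 and 0.659 to 2.49, 2.22 and 1.98 (log2 fold change 1.15 ± 0.17, adjusted p = 0.0466). These 4 increases held in 0, 1, 1 and 0 of the 6 fits.

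Of the other families, ERF and DREB factors had 50 members, 5 up and 2 down (2 and 2 at adjusted p), median 0.018, with 13 members listed at 0 in a library and at 20 FPKM or more in another. Their highest gene, RAP2-4 (LOC104892628), stood at 314, 344 and 279 FPKM in CK_7 and 317, 398 and 342 in S_7 (adjusted p = 0.691). NAC factors had 26 members, 3 up and 4 down (0 and 0 at adjusted p), median 0.015, where the highest, NAC 72 (LOC104891602), stood at 11.3, 7.23 and 19.4 FPKM in CK_7 and 59.2, 129.8 and 66.5 in S_7 (adjusted p = 0.0591). bHLH factors had 60 members, 2 up and 4 down (1 and 0 at adjusted p), median 0.036, and homeodomain leucine zipper factors 19 members, 1 up and 0 down (0 and 0 at adjusted p), median 0.18. HAT5 (LOC104894113), the highest of the latter, stood at 169, 232 and 73.4 FPKM in CK_7 and 290.4, 261 and 224 in S_7, with overlap. Clock genes had 16 members, 2 up and 0 down (0 and 0 at adjusted p), median 0.033. The morning factors LHY (LOC104901408), at 3.69, 4.67 and 7.54 FPKM in CK_7 and 34.2, 15.6 and 20.2 in S_7, and REVEILLE 2 (LOC104891267), at 5.65, 3.27 and 5.87 FPKM in CK_7 and 24.2, 12.8 and 20.8 in S_7, met the DEG criteria but not the adjusted test (adjusted p = 0.0720 and 0.0632, limma), and GIGANTEA (LOC104896241), an evening gene and the highest of the list, stood at 34.4, 31.5 and 35.6 FPKM in CK_7 and 26.1, 24.4 and 20.3 in S_7 (adjusted p = 0.112). The hour of sampling of each library was not given.

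Heat shock proteins and chaperones, which hold and refold damaged proteins, were mostly lower in salt on day 7, 38 of 53. Of the 53 members, 12 met the DEG criteria downregulated and none upregulated, 6 fell at an adjusted p under 0.05 and the median was -0.49 (-0.53 after scaling), beside 0.059 for all annotated genes. The downregulated DEGs were 22.6% of the list, beside 2.38% of all genes tested. Both copies of the 17.1 kDa class II protein fell, LOC104902833 with 123, 149 and 106 FPKM in CK_7 and 43.4, 41.5 and 38.9 in S_7 (log2 fold change -1.58 ± 0.15, adjusted p = 0.0190) and LOC104886590 with 95.9, 112 and 80.5 FPKM in CK_7 and 33.1, 30.5 and 31.2 in S_7 (log2 fold change -1.56 ± 0.14, adjusted p = 0.0167). As near copies they may share reads. The BAG chaperone regulator 1-like gene (LOC104892344) fell from 44.3, 43.1 and 51.2 FPKM to 22.1, 21.2 and 21.6 (log2 fold change -1.05 ± 0.10, adjusted p = 0.0176). HSF30 (LOC104886614), a heat stress factor that switches on such genes, fell with them, at 8.65, 11.3 and 8.67 FPKM in CK_7 and 3.41, 3.47 and 4.01 in S_7 (log2 fold change -1.18 ± 0.15, adjusted p = 0.0362). Bzip and heat stress factors as a list had 20 members, 0 up and 2 down (0 and 1 at adjusted p), median -0.055. This list, made by matching words, leaves out the basic leucine zipper 43-like factor (LOC104896274), which rose and is given above.

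Of the larger chaperones, ClpB1 and heat shock protein 83, chosen after their values were seen, were lower without passing the adjusted test. The disaggregase ClpB1 (LOC104907875) stood at 29.1, 51.4 and 30.7 FPKM in CK_7 and 8.77, 9.99 and 12.9 in S_7 (adjusted p = 0.0501) and heat shock protein 83 (LOC104888372) at 23.6, 37.3 and 30.3 FPKM in CK_7 and 10.3, 4.97 and 8.25 in S_7 (adjusted p = 0.0508). The sums of the larger families overlapped. The 9 heat shock 70 kDa and cognate proteins, 7 lower and 2 higher, summed to 291 to 385 FPKM in CK_7 and 197 to 324 in S_7. The 5 members of the heat shock protein 90 family, all lower, summed to 579 to 760 FPKM in CK_7 and 117, 753 and 721 in S_7. Among the small heat shock proteins, the 17.6 kDa class I gene LOC104896999 stood at 59.7, 129 and 68.2 FPKM in CK_7 and was listed at 0 in all S_7 libraries (adjusted p = 0.00255, 6 of 6 fits), zeros that may be failed estimates. By sum, the 21 small heat shock proteins, a choice made after their values were seen, stood at 511 to 610.2 FPKM in CK_7 and 224 to 273 in S_7, without overlap. The calls of the 17.1 kDa copies held in 2 and 3 of 6 fits, and those of BAG 1-like and HSF30 in 2 and 0.

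**Figure D3:**
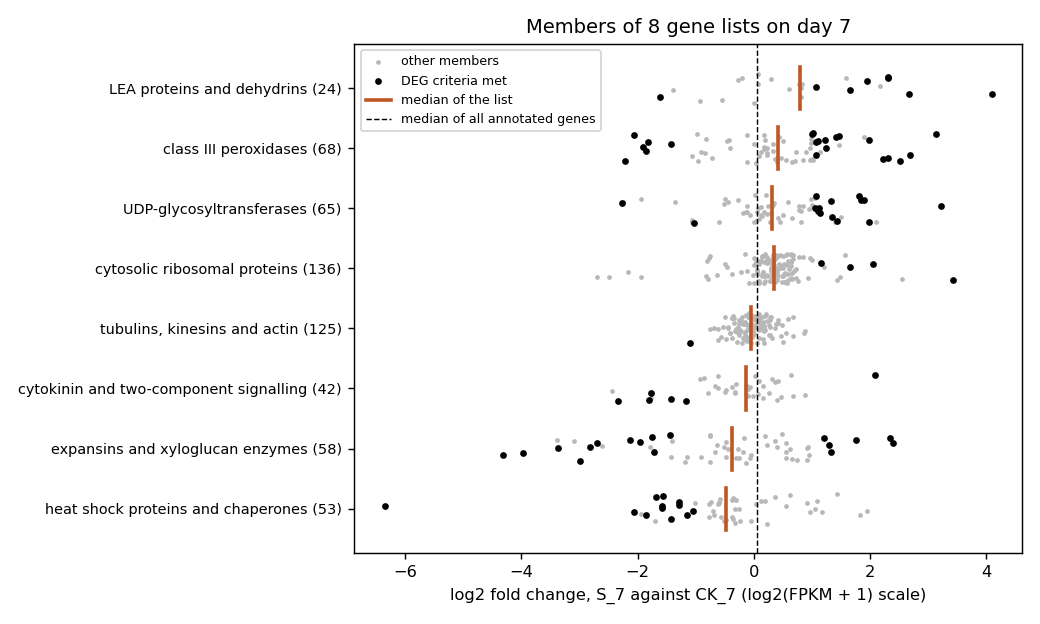
Log2 fold changes (S_7 against CK_7) of the members of 8 gene lists, with the number of members in parentheses, black points for members that met the DEG criteria and an orange line at the median of each list. Heat shock proteins lie mostly left of the median of all annotated genes (dashed line, 0.059), LEA proteins mostly right of it, and tubulins, kinesins and actin close around 0.

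LEA proteins and dehydrins, which protect dry cells, were mostly higher. Of 24 members, 18 were higher in S_7, 7 met the DEG criteria upregulated and 1 downregulated, with a median of 0.79. The DEGs were 29.2% and 4.17% of the list, beside 2.7% and 2.38% of all genes tested. The BURP domain protein 3 gene (LOC104884727), of a family that the list holds beside the LEA proteins, rose from 1.89, 2.34 and 2.84 FPKM to 7.92, 9.74 and 11.0 (log2 fold change 1.65 ± 0.19, adjusted p = 0.0271, 0 of 6 fits). Delta-1-pyrroline-5-carboxylate synthase (LOC104904817), the first enzyme of proline synthesis, rose from 26.7, 24.4 and 27.5 FPKM to 54.8, 51.1 and 51.7 (log2 fold change 0.98 ± 0.087, adjusted p = 0.0161, 2 of 6 fits), close to 2-fold with tight groups. The list of proline metabolism had 7 members, 1 up and 0 down (1 and 0 at adjusted p), median 0.33, and its highest gene, proline transporter 3-like (LOC104903897), stood at 77.2, 46.9 and 39.5 FPKM in CK_7 and 149, 141 and 97.7 in S_7 (adjusted p = 0.114). Glycine betaine and methyl supply had 12 members, 1 up and 0 down (1 and 0 at adjusted p), median 0.41. Its highest gene, adenosylhomocysteinase (LOC104889777), which recycles the methyl carrier, stood at 983, 1045 and 909 FPKM in CK_7 and 1651, 1420.4 and 1331 in S_7 without overlap, although the adjusted p was 0.551. Raffinose, inositol and trehalose synthesis had 22 members, 2 up and 2 down (0 and 0 at adjusted p), median -0.049, with trehalose-phosphate phosphatase D (LOC104892603) the highest at 85.6, 71.2 and 136 FPKM in CK_7 and 116, 144 and 119 in S_7.

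Water channels were not called by the adjusted test. Of 20 aquaporins, 3 met the DEG criteria upregulated and none downregulated. The most abundant, PIP1-4 (LOC104903565) of the plasma membrane, stood at 359, 428 and 435 FPKM in CK_7 and 842, 519 and 774 in S_7 (adjusted p = 0.256). The vacuolar TIP-type channel (LOC104892761) stood at 106, 243 and 195 FPKM in CK_7 and 641, 359.9 and 485 in S_7 and TIP1-3 (LOC104900173) at 81.5, 115 and 42.3 FPKM in CK_7 and 234, 145 and 211 in S_7. Salt libraries were higher in all 3 genes and did not overlap with the controls, and none of the 3 passed the test (adjusted p = 0.138 and 0.166 for the TIP genes, limma).

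Class III peroxidases, which use hydrogen peroxide to build or loosen the wall, had 15 DEGs up and 6 down among 68 members (median 0.41). These were 22.1% and 8.82% of the list, beside 2.7% and 2.38% of all genes tested. At adjusted p 3 rose and 3 fell. Peroxidase N (LOC104889892) rose from 4.93, 5.95 and 3.69 FPKM to 28.8, 21.3 and 34.6 (log2 fold change 2.31 ± 0.23, adjusted p = 0.0214), and peroxidase 27-like (LOC104895046) from 0.180, 0.127 and 0.129 to 1.6, 0.989 and 1.67 (log2 fold change 1.07 ± 0.15, adjusted p = 0.0408). Peroxidase P7 (LOC104903391) fell from 5.43, 4.08 and 4.74 FPKM to 0, 0.365 and 0.888 (log2 fold change -2.06 ± 0.29, adjusted p = 0.0415). Several more abundant members were higher with uneven replicates, among them peroxidase 47 (LOC104890480) at 32.2, 48.4 and 42.5 FPKM in CK_7 and 362, 141 and 139 in S_7, peroxidase 12 (LOC104896185) at 4.95, 14 and 16.4 FPKM in CK_7 and 108, 55.1 and 68.2 in S_7 and peroxidase 27 (LOC104895045) at 1.33, 5.61 and 7.08 FPKM in CK_7 and 51.4, 31.8 and 48.9 in S_7 (adjusted p = 0.0759, 0.0667 and 0.0564, limma). The calls of peroxidase N, peroxidase 27-like and peroxidase P7 held in 1, 1 and 0 of 6 fits. The enzymes that remove reactive oxygen inside cells showed no such spread. Of 90 antioxidant enzymes, 0 met the DEG criteria upregulated and 1 downregulated (1 and 1 at adjusted p), and the highest, cytosolic ascorbate peroxidase (LOC104904642), stood at 356, 415 and 461 FPKM in CK_7 and 521, 434 and 527 in S_7 (adjusted p = 0.597). Glutathione S-transferases had 39 members, 4 up and 2 down (2 and 0 at adjusted p), median 0.37, the highest of which (LOC104898671) stood at 513, 333 and 472 FPKM in CK_7 and 667, 524 and 511 in S_7.

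Several genes of phenolic metabolism were higher in salt. Laccase-7 (LOC104893909), a copper oxidase of the wall that joins phenolic units, rose 4.88-fold with tight groups, at 13.3, 13.8 and 15.6 FPKM in CK_7 and 75.7, 65.6 and 67.1 in S_7 (log2 fold change 2.21 ± 0.10, adjusted p = 0.00255, 6 of 6 fits). Laccases and dirigent proteins had 25 members, 5 up and 1 down (2 and 0 at adjusted p), median -0.30, so that the median lay on the other side. Monolignol enzymes had 45 members, 6 up and 1 down (1 and 0 at adjusted p), median 0.26. 4-coumarate--CoA ligase 2 (LOC104888010) stood at 84.9, 64.8 and 103 FPKM in CK_7 and 275, 194 and 200.2 in S_7 (adjusted p = 0.0616), whereas phenylalanine ammonia-lyase (LOC104898673), the entry enzyme and the most abundant, stood at 1015, 753 and 1014 FPKM in CK_7 and 916, 888 and 868 in S_7 (adjusted p = 0.961). UDP-glycosyltransferases, which attach sugars to hormones and phenolics, had 65 members, 13 up and 2 down (3 and 1 at adjusted p), median 0.31. Their DEGs were 20% and 3.08% of the list, beside 2.7% and 2.38% of all genes tested. Hydroquinone glucosyltransferase (LOC104886514) rose from 58.6, 55.6 and 47.3 FPKM to 183, 153 and 111 (log2 fold change 1.43 ± 0.21, adjusted p = 0.0473), and glycosyltransferase 87A1-like (LOC104900220) from 1.39, 0.551 and 0.868 to 5.86, 7.74 and 4.93 (log2 fold change 1.89 ± 0.26, adjusted p = 0.0399). An anthocyanidin glucosyltransferase 2 gene (LOC104896007) stood at 3.27, 3.85 and 4.41 FPKM in CK_7 and was listed at 0 in S_7 (adjusted p = 0.00946). These held in 0, 0 and 6 of the 6 fits.

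Cytochrome P450 enzymes had 79 members, 5 up and 4 down (2 and 1 at adjusted p), median 0.090. P450 87A3-like (LOC104904168) rose from 1.11, 0.624 and 1.35 FPKM to 8.26, 8.10 and 19.9 (log2 fold change 2.59 ± 0.39, adjusted p = 0.0476, 0 of 6 fits). P450 76AD1 (LOC104905444), of the enzyme family that makes the red betalain pigments of beet, fell from 45.2, 37.6 and 45.7 FPKM to 22.4, 22.9 and 17.1 (log2 fold change -1.01 ± 0.15, adjusted p = 0.0476, 0 of 6 fits). Betalain pigment genes as a list had 13 members, 1 up and 1 down (0 and 1 at adjusted p), median 0.21. Terpene and sterol synthesis had 31 members, 2 up and 2 down (1 and 0 at adjusted p), median 0.075, and its highest gene, squalene monooxygenase (LOC104901642) of sterol synthesis, was lower in each salt library, at 174, 171 and 166 FPKM in CK_7 and 112, 78.9 and 78.6 in S_7 (adjusted p = 0.0716).

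Enzymes that remodel xyloglucan, the polymer that ties cellulose fibres together, were mostly lower. Of 23 xyloglucan endotransglucosylases, a set chosen after its values were seen, 18 were lower in S_7 and 5 higher, 8 met the DEG criteria downregulated and none upregulated, with a median of -1.19, and their FPKM summed to 2909 to 4340.5 in CK_7 and 486 to 1289 in S_7. The xyloglucan endotransglucosylase 2 entry, which joins LOC104889731 and LOC104889733, fell from 37.1, 27.1 and 49.9 FPKM to 2.09, 3.06 and 2.91, a 14.2-fold lower mean (log2 fold change -3.37 ± 0.25, adjusted p = 0.0111, 6 of 6 fits). Its neighbour LOC104889734 stood at 182, 374 and 235 FPKM in CK_7 and 17.0, 21.3 and 114 in S_7 and a further member, LOC104884988, at 204, 144 and 123 FPKM in CK_7 and 8.44, 41.5 and 32.0 in S_7, both without overlap and neither past the adjusted test (adjusted p = 0.144 and 0.101, limma). The whole list of expansins and xyloglucan enzymes had 58 members, 6 up and 11 down (1 and 1 at adjusted p), median -0.37. It also holds the expansins, which loosen walls, with 2 DEGs up and 0 down of 12 expansin-A genes and 4 up and 2 down of 10 expansin-like genes.

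Other wall genes changed less. Pectin enzymes had 70 members, 6 up and 6 down (1 and 1 at adjusted p), median 0.0066. A pectinesterase (LOC104899677) fell from 6.36, 7.70 and 9.17 FPKM to 1.75, 0.591 and 0.927 (log2 fold change -2.09 ± 0.27, adjusted p = 0.0362), and pectate lyase 8 (LOC104899452) rose from 4.17, 3.16 and 4.04 to 9.80, 7.71 and 8.77 (log2 fold change 1.03 ± 0.16, adjusted p = 0.0499), with calls held in 1 and 0 of 6 fits. Cellulose synthesis and wall proteins had 98 members, 3 up and 6 down (0 and 0 at adjusted p), median -0.13, with arabinogalactan protein 9 (LOC104896053) the highest at 1252, 1104 and 1189.8 FPKM in CK_7 and 550.1, 1065 and 969 in S_7. In the list of Casparian strip, suberin and cutin genes (40 members, 2 up and 5 down (0 and 1 at adjusted p), median -0.020), the CASP-like protein Ni6 (LOC104883549) fell from 108, 67.1 and 97.0 FPKM to 19.0, 23.2 and 24.2 (log2 fold change -1.97 ± 0.21, adjusted p = 0.0232, 1 of 6 fits). The Casparian strip membrane proteins themselves stood higher in salt, LOC104889278 at 2.82, 22.6 and 21.1 FPKM in CK_7 and 80.4, 44.9 and 80.1 in S_7 and LOC104897879 at 2.85, 5.20 and 7.18 FPKM in CK_7 and 18.6, 7.27 and 17.1 in S_7 (adjusted p = 0.189 and 0.208, limma).

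Lipid-related lists had DEGs mostly among GDSL esterases (39 members, 4 up and 6 down (2 and 1 at adjusted p), median -0.10). GDSL esterase 7 (LOC104907136) rose from 0.0331, 0.0370 and 0.0374 FPKM to 1.81, 1.36 and 1.16 (log2 fold change 1.23 ± 0.12, adjusted p = 0.0214, 2 of 6 fits), and At5g45960 (LOC104900597) fell from 9.73, 10.1 and 11.9 to 2.07, 3.49 and 2.60 (log2 fold change -1.65 ± 0.19, adjusted p = 0.0275, 1 of 6 fits). Fatty acid synthesis and desaturation had 28 members, 0 up and 1 down (0 and 0 at adjusted p), median -0.11, and lipid-transfer proteins 13 members with no DEG, the highest of which (LOC104904284) stood at 105, 169 and 224 FPKM in CK_7 and 121, 104 and 136 in S_7. The most abundant fatty acid gene, acyl carrier protein 2 (LOC104891013), stood at 172, 171 and 378 FPKM in CK_7 and 299, 291 and 164 in S_7, with overlapping groups.

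Defence proteins changed in both directions. Of 99 pathogenesis-related and inhibitor proteins, 13 met the DEG criteria up and 13 down, and 7 rose and 5 fell at adjusted p. The DEGs were 26.3% of the list, beside 5.08% of all genes tested. The major allergen Mal d 1 gene (LOC104888645), of the PR-10 family, rose from 143 ± 17.6 to 577 ± 77.8 FPKM (SD, n = 3; log2 fold change 2.01 ± 0.20, adjusted p = 0.0214). Its libraries stood at 154, 122 and 151 FPKM in CK_7 and 546, 666 and 519.6 in S_7. A pathogen-related protein (LOC104897886) rose from 13.3, 18.6 and 18.1 FPKM to 153, 93.9 and 87.8 (log2 fold change 2.64 ± 0.26, adjusted p = 0.0200). A PR-1 type gene (LOC104901959) stood at 11.4, 5.10 and 12.8 FPKM in CK_7 and was listed at 0 in S_7 (adjusted p = 0.0228). Of 35 glucan endo-1,3-beta-glucosidases, which cut callose, a set chosen after its values were seen, 30 were lower in S_7 and 5 higher, with 9 DEGs down, 1 up and a median of -0.72. Their FPKM summed to 846 to 864 in CK_7 and 515 to 687 in S_7. At adjusted p 3 fell, LOC104904364, number 4 (LOC104889859) and number 8, with number 8 (LOC104888732) falling from 5.80, 4.97 and 7.58 FPKM to 1.03, 1.32 and 1.69 (log2 fold change -1.59 ± 0.22, adjusted p = 0.0415) and a number 14 gene (LOC104902011) at 78.5, 67.7 and 77.3 FPKM in CK_7 and 18.3, 38.2 and 32.5 in S_7 (adjusted p = 0.0867). The call held in 2 of 6 fits for Mal d 1, in 2 for the pathogen-related protein, in 1 for PR-1 and in 0 for glucosidase 8. Germin-like and cupin proteins had 28 members, 5 up and 0 down (0 and 0 at adjusted p), median 0.43, with 6 members listed at 0 in a library and at 20 FPKM or more in another, and the highest (LOC104889037) stood at 1177, 993 and 1256 FPKM in CK_7 and 1193, 1256 and 1048 in S_7.

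Receptor kinases of the cell surface split evenly. Leucine-rich repeat kinases had 177 members, 9 up and 7 down (2 and 2 at adjusted p), median 0.0014. At5g49770 (LOC104888626) rose from 1.01, 1.14 and 1.38 FPKM to 8.46, 5.23 and 7.54 (log2 fold change 1.87 ± 0.22, adjusted p = 0.0291), At4g00960 (LOC104901059) from 10.1, 13.1 and 8.68 to 22.4, 25.4 and 25.3 (log2 fold change 1.14 ± 0.16, adjusted p = 0.0433), and an inactive kinase (LOC104906274) fell from 5.97, 6.41 and 5.83 to 1.98, 2.08 and 2.77 (log2 fold change -1.12 ± 0.17, adjusted p = 0.0475). The description of At4g00960 names a receptor-like kinase and no leucine-rich repeat. It is 1 of the 2 rises of the list and may belong to another class. Lectin, wall-associated and cysteine-rich kinases had 97 members, 9 up and 8 down (4 and 2 at adjusted p), median -0.080. The wall-associated kinase-like 14 gene (LOC104896001) fell from 36.5, 22.4 and 26.7 FPKM to 5.62, 2.71 and 2.88 (log2 fold change -2.67 ± 0.30, adjusted p = 0.0257). A G-type lectin kinase (LOC104883333) rose from 2.5, 1.77 and 3.27 FPKM to 9.55, 7.62 and 11.3 (log2 fold change 1.58 ± 0.23, adjusted p = 0.0459), as did a joined entry of LOC109134669 and LOC104890262, from 1.64, 1.47 and 1.47 to 5.47, 4.53 and 4.51 (log2 fold change 1.20 ± 0.17, adjusted p = 0.0415). The L-type lectin kinase S.7 (LOC104891871) stood at 1.25, 1.14 and 1.55 FPKM in CK_7 and was listed at 0 in S_7 (adjusted p = 0.0124). In the order of this paragraph the calls held in 1, 0, 0, 1, 0, 0 and 3 of 6 fits.

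Calcium sensors and kinases held more DEGs down than up, with 120 members, 5 up and 11 down (2 and 2 at adjusted p), median -0.034. These DEGs were 4.17% and 9.17% of the list, beside 2.7% and 2.38% of all genes tested. The plasma membrane calcium pump 2 (LOC104894949) fell from 95.0, 107 and 114 FPKM to 34.2, 36.5 and 25.2 (log2 fold change -1.70 ± 0.17, adjusted p = 0.0212), and the channel gene glutamate receptor 2.6-like (LOC104888500) from 9.48, 10.6 and 14.7 to 1.83, 1.13 and 2.06 (log2 fold change -2.23 ± 0.23, adjusted p = 0.0231). The calcium-binding protein CML39 (LOC104887095) stood at 145, 85.3 and 134 FPKM in CK_7 and 7.07, 8.44 and 26.6 in S_7 (adjusted p = 0.0555). Annexin D4 (LOC104887499), a membrane protein that binds calcium, rose from 10.1, 9.46 and 9.58 FPKM to 18.6, 23.2 and 29.5 (log2 fold change 1.19 ± 0.17, adjusted p = 0.0466). The 3 calls held in 2, 0 and 1 of 6 fits.

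**Figure D4:**
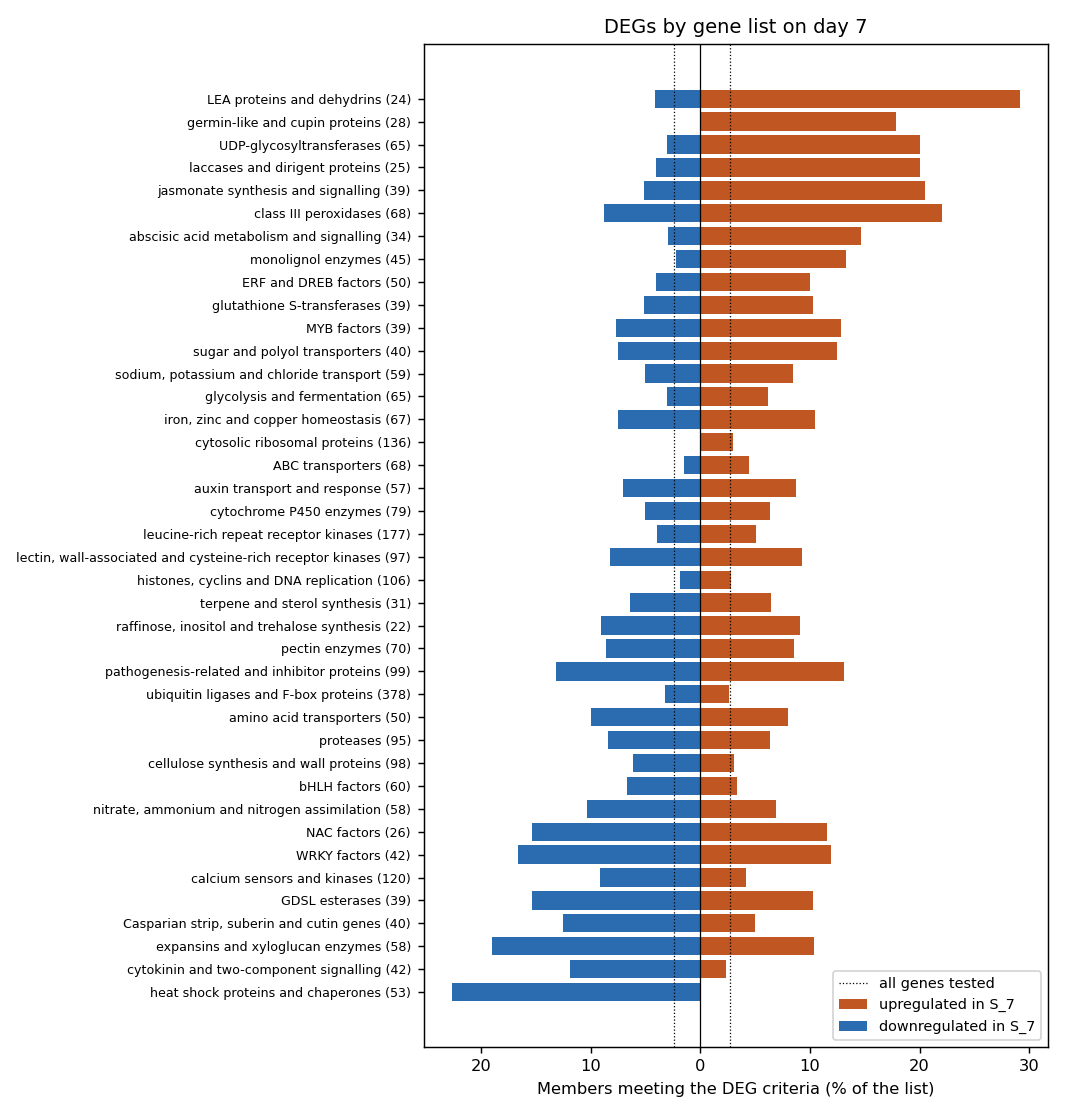
Share of the members of each gene list that met the DEG criteria, upregulated (orange, right) and downregulated (blue, left), for the 40 lists with at least 20 members and at least 4 DEGs, with the number of members in parentheses. Dotted lines mark the shares over all 27411 genes tested, 2.7% and 2.38%, and heat shock proteins stand at the bottom with no upregulated bar.

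Ribosomal proteins were mostly higher, by a small amount. Of 136 cytosolic ribosomal proteins, 118 were higher in S_7 and 18 lower, with a median of 0.35, which was 0.28 after scaling, but only 4 met the DEG criteria, all upregulated. The sums stood at 8446 to 9498 FPKM in CK_7 and 10335 to 11370.1 in S_7 for the small subunit and at 11112 to 12292 and 14143 to 15912 for the large, without overlap. The most abundant, ubiquitin-40S S27a (LOC104891198), stood at 585, 608 and 621 FPKM in CK_7 and 658, 599 and 658 in S_7 (adjusted p = 0.906).

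The DEG criteria were met by 0.8% of the cytoskeleton list and 4.72% of the list of histones, cyclins and DNA replication. Beside these stand 5.08% of all genes tested and 7.06% of the annotated genes. Tubulins, kinesins and actin had 125 members, 0 up and 1 down (0 and 0 at adjusted p), median -0.058, and the highest, actin-7 (LOC104888182), stood at 880.3, 1059 and 846 FPKM in CK_7 and 963, 809.5 and 879 in S_7. Histones, cyclins and DNA replication had 106 members, 3 up and 2 down (0 and 0 at adjusted p), median 0.069. Cyclin-D3-1 (LOC104904975), which drives cells into division, stood at 9.38, 19.2 and 22.8 FPKM in CK_7 and 4.50, 3.59 and 3.73 in S_7 (adjusted p = 0.0716), whereas histone H3.3 (LOC104896028), the highest of the list, overlapped between the groups, at 199, 885 and 823 FPKM in CK_7 and 1113, 876 and 869 in S_7.

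Of the lists not yet given, ubiquitin ligases and F-box proteins had 378 members, 10 up and 12 down (2 and 5 at adjusted p), median 0.061. These DEGs were 5.82% of the list, and those of the ABC transporters 5.88%, near the 5.08% of all genes tested. The F-box protein CPR30 (LOC104892833) rose from 1.66, 1.70 and 1.72 FPKM to 10.8, 6.18 and 7.16 (log2 fold change 1.72 ± 0.23, adjusted p = 0.0379, 0 of 6 fits). The F-box/kelch protein At3g23880 (LOC104883181) stood at 19.8, 18 and 16.4 FPKM in CK_7 and 1.78, 0 and 0 in S_7 (adjusted p = 0.0291, 1 of 6 fits) and ATL6 (LOC104891588) at 2.37, 2.43 and 3.46 FPKM in CK_7 and 0, 0 and 0 in S_7 (adjusted p = 0.0146, 3 of 6 fits). ABC transporters had 68 members, 3 up and 1 down (2 and 0 at adjusted p), median 0.067, and B family member 15-like (LOC104887441) rose from 2.94, 3.64 and 3.11 FPKM to 28.0, 16.1 and 14.8 (log2 fold change 2.23 ± 0.26, adjusted p = 0.0282, 1 of 6 fits). Phosphate transport and starvation had 35 members, 1 up and 1 down (0 and 1 at adjusted p), median -0.17. A purple acid phosphatase (LOC104888997), of enzymes that free phosphate, fell from 14.6, 10.5 and 13.8 FPKM to 3.61, 3.56 and 2.96 (log2 fold change -1.66 ± 0.16, adjusted p = 0.0211, 1 of 6 fits).

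The remaining lists were proteases with 95 members, 6 up and 8 down (3 and 0 at adjusted p), median -0.022, sulfate uptake and assimilation with 19 members, 1 up and 0 down (0 and 0 at adjusted p), median -0.0064, and photosynthesis genes with 15 members, 0 up and 1 down (0 and 0 at adjusted p), median -0.28. The protease RD21A (LOC104904978), a vacuolar cysteine proteinase, rose from 81.0, 102 and 88.3 FPKM to 271, 415 and 349 (log2 fold change 1.90 ± 0.21, adjusted p = 0.0247, 1 of 6 fits). The highest sulfate gene, adenylylsulfate reductase 1 (LOC104900978), stood at 349, 303 and 287 FPKM in CK_7 and 441, 279 and 262 in S_7, and the highest photosynthesis gene, oxygen-evolving enhancer 3 (LOC104901086), at 4.47, 8.04 and 7.11 FPKM in CK_7 and 1.74, 4.05 and 4.94 in S_7. 

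The 5 annotated genes with the highest mean FPKM ranged from a steady level to a near loss. LOC104889939, which has no named function, fell from 15359, 17547 and 22146 FPKM to 207, 161 and 503 (adjusted p = 0.0393, 0 of 6 fits). The thaumatin-like protein 1 gene (LOC104892311), of the PR-5 family of defence proteins, rose from 358, 317 and 268 FPKM to 2441, 4384 and 5817 (adjusted p = 0.0443, 1 of 6 fits). LOC104900114, also without a named function, stood at 1545, 1471 and 1902 FPKM in CK_7 and 3722, 5073 and 3427 in S_7, higher in each salt library but not past the test (adjusted p = 0.463). The translationally controlled tumor protein homolog (LOC104890318) overlapped between the groups, at 2307, 2375 and 2441 FPKM in CK_7 and 2557, 2759.8 and 2147 in S_7. An alpha-amylase/trypsin inhibitor entry, which joins several loci beginning with LOC104892319, overlapped too, at 1659.7, 1875 and 2070.3 FPKM in CK_7 and 3306, 1417 and 2494 in S_7.

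The effect of salt on day 1 was set beside that on day 7. In a fit of all 12 libraries, the interaction of salt and day passed an adjusted p of 0.05 in 1.76% of genes. It passed for 24 of the 79 genes past the adjusted test that the rule chose, but these were chosen by day 7 values that also enter the interaction, so nothing is read from that share. HKT8-like (LOC104903830) had a log2 fold change of 0.46 on day 1 against -3.31 on day 7 (interaction adjusted p = 0.00677), HKT6 (LOC104902377) 0.57 against -2.52 (adjusted p = 0.00677), and nitrate transporter 2.5-like (LOC104908398) 0.12 against -2.17 (adjusted p = 0.00533). Mean FPKM in CK_1, S_1, CK_7 and S_7 was 3.37, 4.88, 19.0 and 1.07 for HKT8-like. In the same order it was 0.188, 0.828, 7.12 and 0.428 for HKT6 and 0.00912, 0.0999, 4.93 and 0.284 for transporter 2.5-like. In these genes CK_7 stood above both groups of day 1, and S_7 stood nearer to them. The organic cation/carnitine transporter 7 gene (LOC104891334) went from 0.38 to 3.30 (adjusted p = 0.00440) and laccase-7 (LOC104893909) from -0.072 to 2.21 (adjusted p = 0.0183). Laccase-7 had means of 61.8, 55.0, 14.2 and 69.5 FPKM in CK_1, S_1, CK_7 and S_7, where CK_7 stood apart. The carnitine transporter gene had means of 13.5, 17.6, 8.28 and 90.2 FPKM, where S_7 stood apart. Why the controls differed between the days was not tested. For SWEET7 (LOC104908211) the difference between -2.62 and -3.91 did not pass (adjusted p = 0.0824), nor did that of the Fe(2+) transport gene (LOC104900709), -0.48 against 4.0 (adjusted p = 0.0619), or of the class II heat shock gene LOC104902833, 1.01 against -1.58 (adjusted p = 0.0652).

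**Figure D5:**
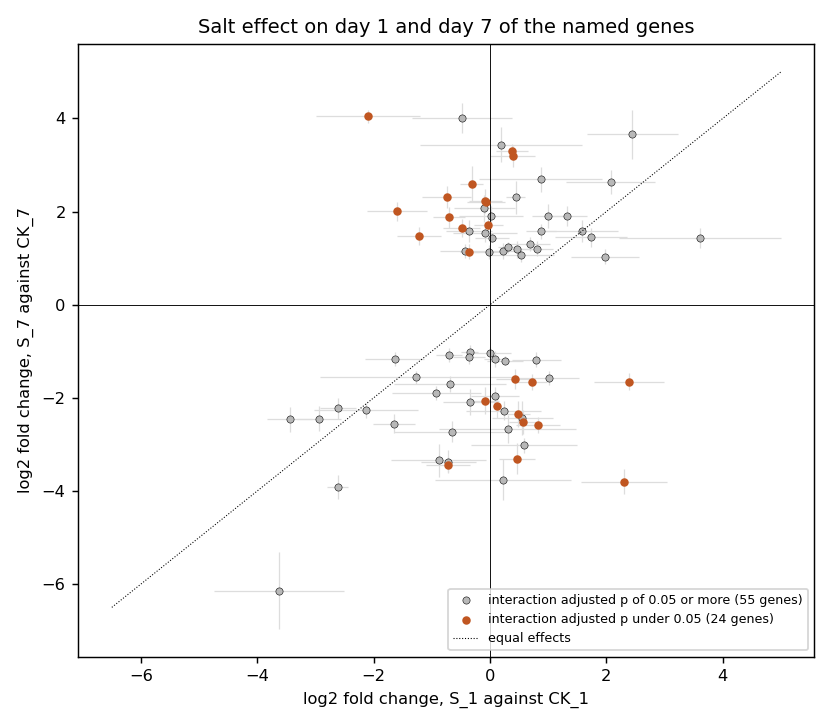
Log2 fold change of salt against control on day 1 (x axis) and day 7 (y axis) for the 79 named genes past the adjusted test on day 7, with standard errors as bars and a dotted line where both effects are equal. Orange points mark the 24 genes whose interaction of salt and day passed an adjusted p of 0.05, and most of them lie near 0 or on the other side of it on day 1.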

How the data were processed

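Poly(A) RNA from the roots of the 12 libraries was sequenced as paired ends. Per the submitters' processing notes, the authors aligned reads with HISAT2 2.0 and assembled them with StringTie 1.3.0, and deposited FPKM values per gene in 1 table. FPKM keeps no read numbers, so a count model was not used and relative depth came from the ratios of low values between libraries. Entries that join several loci (557 of the annotated genes), loci with several entries (among the named genes CPR30, BURP 3, cytokinin hydroxylase, phenylalanine ammonia-lyase, 12-oxophytodienoate reductase 2, adenosylhomocysteinase, RAP2-4, arabinogalactan protein 9, oxygen-evolving enhancer 3, LOC104892244, LOC104898671, LOC104900114, LOC104892317 and the joined lectin kinase) and near-identical copies may share or split reads.

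Values were taken as log2(FPKM + 1), and the 3 S_7 and 3 CK_7 libraries were compared with limma 3.58.1 (R 4.3.3) over all 27411 genes above 0 in any of the 6, with Benjamini-Hochberg adjustment. The scripts were tested on simulated data. The 14982 annotated genes and the 60 gene lists, made by matching words of the descriptions, were chosen with earlier results of these data known.

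Per list, up to 2 rises and 2 falls were named, the largest with an adjusted p under 0.05, a log2 fold change beyond 1, groups that did not overlap, no value of 0 beside 20 FPKM or more, and no mention in the study, or else the member with the highest mean FPKM. The 5 largest rises and falls outside the lists and the 5 most abundant genes were added. Alternatives were a pseudocount of 0.1, a filter at a mean FPKM of 1, median ratio scaling, no moderation, all 12 libraries, the fits that leave out 1 library, and a block for the replicate number. The replicates were labelled biological. Promoter motifs were not analysed here.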

Additional observations from a re-analysis of the deposited data

Results flagged for a closer look

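For 32 of the named genes the effect of salt differed between day 7 and day 1 in a fit of all 12 libraries (interaction adjusted p under 0.05, limma), as it did for 1.76% of all genes. Most of the named genes were chosen by their day 7 values, which also enter this test, so the number is not set against that share. Values are the log2 fold change on day 7 minus that on day 1. Such a difference can come from a change of the control group between the days as well as of the salt group. In transport, the difference was -3.76 for HKT8-like, -3.09 for HKT6, -2.83 for cation/H+ antiporter 14-like, -2.29 and -2.98 for the nitrate transporter 2.5-like genes LOC104908398 and LOC104908396, -2.71 for WAT1-related At2g37460, -2.84 for WAT1-related At2g39510-like and -2.52 for lysine histidine transporter-like 7. It was 2.93 for organic cation/carnitine transporter 7, 2.32 for ABC transporter B15-like and 3.36 for the TIP-type aquaporin, which stood at a log2 fold change of -1.87 on day 1 and 1.49 on day 7.

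In wall and secondary metabolism, the difference was 3.06 for peroxidase N, -1.97 for peroxidase P7, 2.28 for laccase-7, 2.91 for cytochrome P450 87A3-like, -3.89 for the lipid-transfer protein LOC104904284, -4.04 for GDSL esterase At5g45960, -2.02 for glucan endo-1,3-beta-glucosidase 8 and -2.38 for the purple acid phosphatase. The lipid-transfer protein was 3.49 higher on the log2 scale on day 1 and its groups overlapped on day 7.

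In regulation and protection, the difference was 2.69 for WRKY 61, 3.16 for LHY, 2.59 for kinase At5g49770, 1.49 for kinase At4g00960, 1.75 for CPR30, -3.41 for protein phosphatase 2C 72, -6.11 for myb-like protein X, 2.14 for BURP domain protein 3, 3.60 for Mal d 1, -2.63 for ClpB1 and 2.80 for polyamine oxidase 5. It was 6.14 for the entry of LOC104892317 and -6.17 for the 17.6 kDa heat shock gene LOC104896999, both of which rest on values at or near 0 in a group.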

How the results depend on the processing

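The number of calls depended on the test more than the direction did. At adjusted p, 84 genes were higher and 68 lower over all genes tested without moderation of the variances, 67 and 54 of them annotated, and testing only genes whose mean reached 1 FPKM called 224 annotated genes lower. A pseudocount of 0.1 gave 1465 DEGs up and 1239 down. Leaving out 1 library gave 49 to 134 genes higher and 60 to 100 lower at adjusted p, among the annotated genes 47 to 98 and 52 to 84. Of the 93 named calls, 56 to 72 were lost without 1 library, 28 in the fit of all 12 libraries, 70 without moderation, 5 with the smaller pseudocount, 2 with the filter and 3 with scaling, in each case with the direction kept. All 93 were lost with the replicate number as a block, also with the direction kept.

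No label says what a replicate number marks. Same-numbered libraries did not deviate together (correlations of -0.028, -0.082 and -0.029 across genes), and the main fit did not pair them. Deviations from means of 3 libraries cannot exclude a pairing that acts on part of the genes. With the replicate number as a block, 0 genes were higher and 1 lower at adjusted p, over all genes as among the annotated genes, and 698 DEGs were up and 603 down at the unadjusted P. No library correlated best with its own number.

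The sign turned only in genes near 0. Median ratio scaling gave -0.044 for adenylylsulfate reductase 1, -0.041 for germin-like LOC104889037 and -0.013 for the tumor protein homolog. Without 1 library the log2 fold change ran from -0.19 to 0.027 for phenylalanine ammonia-lyase, from -0.071 to 0.50 for acyl carrier protein 2, from -0.21 to 0.17 for adenylylsulfate reductase 1, from -0.065 to 0.11 for germin-like LOC104889037, from -0.13 to 0.031 for actin-7 and from -0.019 to 0.16 for the tumor protein homolog. The interaction of the heat shock gene LOC104886590 became 0.76 and that of NCED5 -0.10 with a pseudocount of 0.1. The causes of these changes were not tested. Read numbers are not in the table, so counting error could not be given, and values under 1 FPKM are the least certain.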
